A study of Homo sapiens with 6 samples.

Results

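The SOX transcription factor genes examined here were SOX1, SOX2, SOX3, SOX4, SOX5, SOX6, SOX9, SOX11, SOX12 and SOX21, 10 of the 31814 genes of the deposited table, matched by gene symbol. They were measured in H69, a human cell line grown in culture, treated for 24 h with 1 µM trichostatin A (TSA), against the same line given only the solvent DMSO (vehicle). Histone deacetylases, which TSA inhibits, take acetyl groups off histones and other proteins. Each group held 3 libraries of polyadenylated RNA, and 1 label tag writes HSA for the agent that the treatment text names TSA. Whether the libraries within a group had cultures of their own is not stated in the labels. The p-values therefore cover the spread among these libraries, which may be technical.

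SOX proteins bind the minor groove of DNA through an HMG box and bend it, and most act beside partner factors. Groups are set by the sequence of that box. SOX1, SOX2 and SOX3 form group B1, activators that hold neural progenitors undifferentiated, and SOX21 belongs to group B2, whose members repress and counter B1 factors. SOX4, SOX11 and SOX12 form group C, which acts in progenitors and young neurons. SOX5 and SOX6 belong to group D, which lacks a transactivation domain of its own, and SOX9 to group E, known from cartilage, testis, bile duct and stem cells of several epithelia. SOX2 is also a lineage factor of the airway and is often amplified or highly expressed in lung cancers.

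No tissue of origin is given in the labels, and more than one human line carries the name H69. Summed over 8 neuroendocrine markers, the level ran from 732 to 846 TPM in TSA libraries and from 1437 to 1706 TPM in vehicle libraries, and 5 of the 8 fell while 2 rose. INSM1, a neuroendocrine repressor, was at 24.7 ± 4.93 TPM in TSA and 614 ± 77.4 TPM in vehicle (SD, n = 3 each). Over 8 bile duct markers, in 9 rows because AQP1 has 2, the sum ran from 67.2 to 82.3 TPM in TSA libraries. In vehicle libraries it ran from 40.0 to 49.7 TPM. The higher sum in TSA rests mainly on SLC4A2, at 59.7 TPM in TSA and 20.6 TPM in vehicle. CFTR and SCTR were under 1 TPM throughout. Testing needed 1 TPM in at least 3 of the 6 libraries. Of the 4 rows tested 1 was higher, SLC4A2, and 1 lower, KRT7, beside 28.0% and 34.2% of all tested genes. Neither AQP1 row was called. KRT7 was under 1 TPM in all TSA libraries, so it was tested only through its vehicle values. Fibroblast markers summed to 4.94 to 6.74 TPM in TSA libraries and 0.211 to 0.906 TPM in vehicle libraries, with COL1A1 called higher at 5.44 ± 0.958 TPM in TSA and 0.510 ± 0.358 TPM in vehicle (SD, n = 3 each), while COL3A1 and DCN were at or near 0. COL1A1 was under 1 TPM in all vehicle libraries, so it could be tested only because it was higher in TSA. Leucocyte markers summed to 3.25 to 5.37 TPM in TSA libraries and 1.18 to 2.22 TPM in vehicle libraries, with CD68 called higher at 3.88 ± 1.11 TPM in TSA and 1.14 ± 0.513 TPM in vehicle, and CD3E at no more than 0.298 TPM. CD68 reached 1 TPM in only 1 vehicle library, so it was tested through its TSA values, where it is high. PTPRC, the remaining leucocyte marker, went the other way, at 0.043 TPM in TSA and 0.48 TPM in vehicle, and was too low to test. Endothelium markers summed to 0.125 to 0.275 TPM in TSA libraries and 0.399 to 0.583 TPM in vehicle libraries. The part of these marker shifts in the SOX changes below was not tested. Whole reads recovered from the deposited values, which are lower bounds, came to between 22533307 and 26148651 per library. TPM is a read count divided by gene length and scaled to a fixed library total, so levels of different genes can be compared, but a value says nothing of the amount of RNA per cell.

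Of the 10 SOX genes, 8 reached 1 TPM in at least 3 of the 6 libraries and were tested. Among them 6 fell with TSA, which were SOX2, SOX4, SOX5, SOX6, SOX12 and SOX21, while SOX9 rose and SOX11 did not pass the test. Over all 17596 tested genes, 34.2% were lower and 28.0% higher in TSA, 62.2% in all. All TSA values lay below all vehicle values in 6 of the 8 and above them in 1, against 36.2% and 30.8% of all tested genes. The median log2 fold change of the 8 SOX genes was −0.998, against −0.095 over all tested genes. These counts and this median include SOX6, which reached 1 TPM in only 1 TSA library and was tested through its vehicle values, where it is high. Genes were tested two-sided with limma on log2(TPM + 1), p-values were Benjamini-Hochberg adjusted over the 17596 genes with the threshold at 0.05, and fold changes on this scale understate the change of low genes. In this bulk RNA, fewer cells of a kind and less of the transcript per cell cannot be told apart.

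The promoters of the 4 SOX genes that were above 10 TPM in every library and fell are shown first, as the lowered SOX genes with the highest levels. Each is RefSeq sequence of build GRCh38.p14, from 250 bases before the start site to 50 after it, with CCAAT or its reverse ATTGG in capitals.
SOX2: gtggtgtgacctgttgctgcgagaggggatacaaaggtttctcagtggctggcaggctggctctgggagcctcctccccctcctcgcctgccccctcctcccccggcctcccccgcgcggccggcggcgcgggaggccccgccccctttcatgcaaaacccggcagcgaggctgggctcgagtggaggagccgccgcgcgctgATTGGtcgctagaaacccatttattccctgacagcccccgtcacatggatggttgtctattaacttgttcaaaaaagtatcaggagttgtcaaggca
SOX4: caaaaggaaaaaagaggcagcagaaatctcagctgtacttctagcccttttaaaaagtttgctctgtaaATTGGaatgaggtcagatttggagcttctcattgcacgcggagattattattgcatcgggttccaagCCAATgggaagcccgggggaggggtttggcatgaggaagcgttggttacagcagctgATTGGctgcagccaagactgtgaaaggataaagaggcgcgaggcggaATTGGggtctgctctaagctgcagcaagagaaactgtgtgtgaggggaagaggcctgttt
SOX12: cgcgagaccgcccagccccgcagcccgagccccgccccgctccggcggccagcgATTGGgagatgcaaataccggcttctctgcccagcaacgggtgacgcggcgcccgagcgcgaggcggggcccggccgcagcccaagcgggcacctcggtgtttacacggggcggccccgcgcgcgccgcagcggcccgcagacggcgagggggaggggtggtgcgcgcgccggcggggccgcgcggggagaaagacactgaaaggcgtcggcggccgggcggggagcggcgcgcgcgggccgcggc
SOX21: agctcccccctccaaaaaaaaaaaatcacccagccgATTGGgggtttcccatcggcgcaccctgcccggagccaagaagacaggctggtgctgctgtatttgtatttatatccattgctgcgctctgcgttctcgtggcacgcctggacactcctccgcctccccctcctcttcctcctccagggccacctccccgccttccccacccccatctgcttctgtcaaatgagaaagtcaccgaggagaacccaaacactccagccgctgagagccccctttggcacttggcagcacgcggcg
They lie at chr3:181711675-181711974 on the plus strand for SOX2, chr6:21593501-21593800 on the plus strand for SOX4, chr20:325302-325601 on the plus strand for SOX12 and chr13:94712496-94712795 on the minus strand for SOX21. The deposited table rests on hg19, another build, so none of its values is tied to these coordinates.

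CCAAT, the letters bound by the factor NF-Y, stood on either strand in all 4 of these windows, with 4 matches in SOX4. A RefSeq window was found for 8 of the 10 SOX genes, not for SOX9 and SOX11, and 5 of the 8 held CCAAT, SOX3 being the fifth. The window of SOX5 and the most upstream window of SOX6, both genes that fell, did not hold it, nor did that of SOX1. SOX6 has 5 windows in the table and is counted here by the most upstream alone, and 3 of the other 4 held CCAAT. Of all 35116 RefSeq windows of this length 34.6% held it. The octamer ATGCAAAT, recognised by POU factors, was in the SOX12 window and in 1.77% of all windows. GGGCGG, the GC box, was in 6 of the 8 and in 45.0% of all windows. The letters ACAAAG and ACAATG, which fit the core that SOX proteins bind, were in 1 SOX window each, those of SOX2 and SOX5, against 16.1% and 10.8% of all windows. Of the further SOX6 windows, not counted here, 1 held ACAAAG and 2 held ACAATG. All motifs were searched on both strands. They were chosen after the sequences had been read, no match to 1 motif overlapped a match to another in these windows, and a match is only a description of the letters. The SOX12 window was 80.3% G or C and that of SOX4 49.3%, beside a median of 58.7% over all windows.

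SOX2 was the most abundant of the SOX genes in every library. It stood at 294, 295 and 294 TPM in TSA libraries 1, 2 and 3, and at 707, 718 and 664 TPM in vehicle libraries 1, 2 and 3. All TSA libraries lay far below all vehicle libraries and within a narrow band. The mean was 294 ± 0.968 TPM in TSA and 696 ± 28.2 TPM in vehicle (SD, n = 3 each), 2.37-fold lower, with log2 fold change −1.24 (SE 0.094, limma adjusted p 6.19e-05). Between 5217 and 5523 reads stood behind each TSA value, and between 11306 and 11841 behind each vehicle value. Among all genes of a library SOX2 ranked between 408 and 543 in TSA and between 115 and 153 in vehicle, counted from the highest level, so it remained a high transcript.

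The other members of group B1 were nearly absent. SOX1, a factor of early neuroectoderm, was listed at 0 in all TSA libraries, and at 0.219, 0 and 0.103 TPM in vehicle libraries. These rest on at least 2, 0 and 1 reads. SOX3, a factor of the developing pituitary and neural tube, was listed at 0 in all TSA libraries, and in vehicle it was seen in library 1 alone, at 0.0722 TPM and at least 1 read. Neither was tested. The authors' deposited table gives SOX1 a log2 fold change of −4.65 with an FDR of 0.0083. It gives SOX3 −1.89 with an FDR of 0.338. Both are fits against a group at 0 and depend on how the authors' tool treats it.

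SOX21 had the lowest log2 fold change of the 8 SOX genes tested. It was at 11.6, 12.0 and 13.8 TPM in TSA libraries 1, 2 and 3, and at 81.1, 76.2 and 84.2 TPM in vehicle libraries 1, 2 and 3. The TSA values form a tight group far under the vehicle values. The means of 12.5 ± 1.18 TPM in TSA and 80.5 ± 4.02 TPM in vehicle (SD, n = 3 each) gave a 6.46-fold lower level, with log2 fold change −2.60 (SE 0.10, limma adjusted p 7.75e-06). Only 2.51% of all tested genes had a log2 fold change as low or lower. Behind these values stood 211 to 245 reads in TSA libraries and 1199 to 1493 in vehicle libraries.

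**Figure D1:**
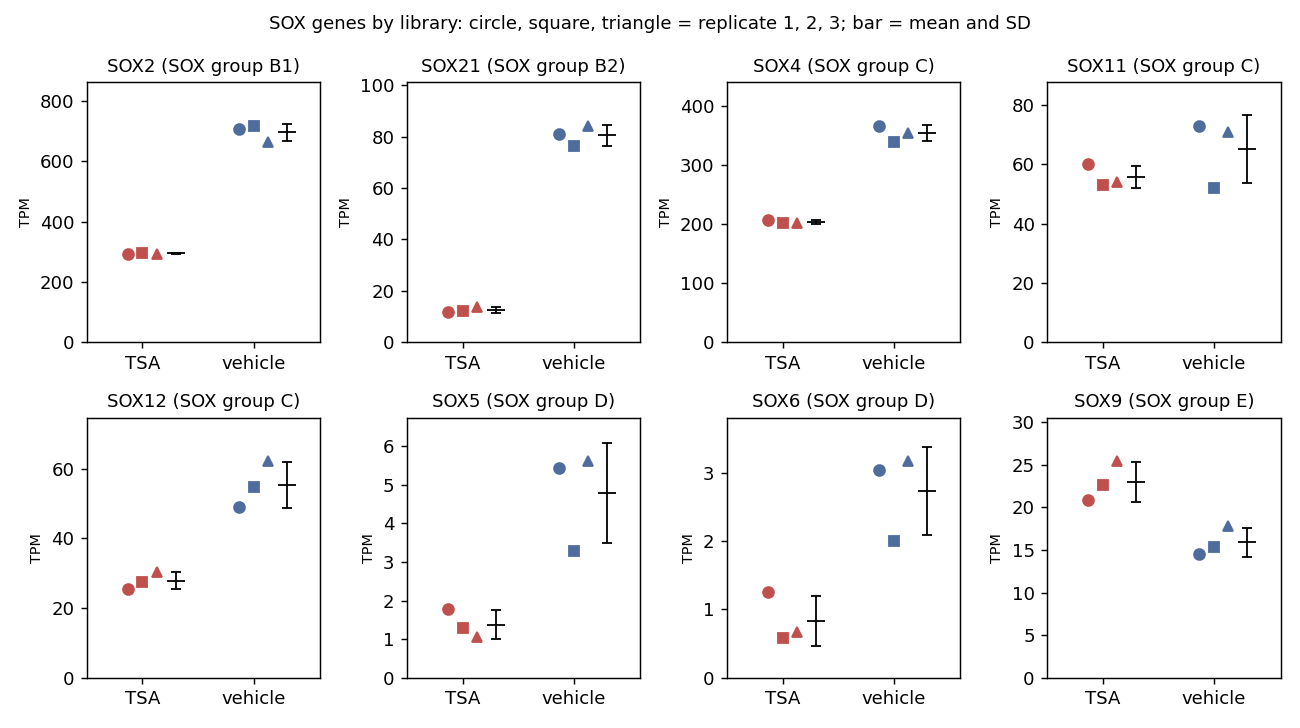
Level of the 8 tested SOX genes in TPM (y axis, linear and starting at 0, scaled per gene) in 3 TSA libraries (left) and 3 vehicle libraries (right). Points are libraries, and the bar beside them is the mean with its SD. TSA values lie below all vehicle values for SOX2, SOX21, SOX4, SOX12, SOX5 and SOX6, above them for SOX9, and overlap for SOX11.

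Within group C, SOX4 and SOX12 fell and SOX11 did not pass the test. SOX4, a factor of progenitors that is highly expressed in many tumours, was at 207, 202 and 203 TPM in TSA libraries 1, 2 and 3, and at 367, 339 and 354 TPM in vehicle libraries. The groups were wide apart, and the difference was far larger than the spread in either. It was 1.74-fold lower, with log2 fold change −0.79 (SE 0.084, limma adjusted p 0.00025). SOX12, a weaker activator than its relatives in the group, was at 25.6, 27.5 and 30.4 TPM in TSA libraries, and at 48.9, 54.9 and 62.2 TPM in vehicle libraries. It was 1.99-fold lower, with log2 fold change −0.96 (SE 0.12, limma adjusted p 0.00051).

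SOX11, a factor of migrating and maturing neurons, was at 60.0, 53.0 and 53.9 TPM in TSA libraries 1, 2 and 3, and at 73.0, 52.0 and 70.7 TPM in vehicle libraries 1, 2 and 3. Vehicle library 2 lay below every TSA library, so the groups overlapped. The log2 fold change was −0.21 (SE 0.15, limma adjusted p 0.25). Without vehicle replicate 2 it was −0.36 with a limma adjusted p of 0.0245, and with length and GC trends removed from each library it turned to 0.17 with an adjusted p of 0.262. Over its 18 alternatives the limma adjusted p ran from 0.0245 to 0.641. A direction for SOX11 therefore cannot be given from these libraries.

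The group D genes were low and had few reads. SOX5, a regulator of cartilage and of neuron production, was at 1.78, 1.28 and 1.05 TPM in TSA libraries 1, 2 and 3, and at 5.45, 3.28 and 5.62 TPM in vehicle libraries 1, 2 and 3. SOX6, its close relative with roles in cartilage, muscle and red blood cells, was at 1.25, 0.581 and 0.662 TPM in TSA libraries, and at 3.04, 1.99 and 3.17 TPM in vehicle libraries. In both genes all TSA values lay below all vehicle values, and vehicle library 2 was the lowest of its group. SOX5 was 3.48-fold lower in the mean TPM, with log2 fold change −1.27 (SE 0.23, limma adjusted p 0.0027). For SOX6 the level was 3.29-fold lower, with log2 fold change −1.03 (SE 0.21, limma adjusted p 0.0053). SOX6 reached 1 TPM in only 1 TSA library and so passed the filter through its vehicle values, where it is high. With length and GC trends removed, the log2 fold changes came to −0.78 for SOX5 and −0.54 for SOX6, and with a pseudocount of 0.1 in place of 1 that of SOX6 came to −1.65. Both genes passed the test in all 17 settings in which they could be tested. Reads behind them ran from 66 to 178 in TSA libraries and from 183 to 441 in vehicle libraries over both genes.

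SOX9, the group E member of this set, went the other way. It was at 20.8, 22.7 and 25.45 TPM in TSA libraries 1, 2 and 3, and at 14.5, 15.4 and 17.8 TPM in vehicle libraries. All TSA values lay above all vehicle values, by a small margin. The level was 1.44-fold higher, with log2 fold change 0.50 (SE 0.13, limma adjusted p 0.012). Without TSA replicate 3 the log2 fold change was 0.43 and the call was lost with an adjusted p of 0.053, while over the 18 alternatives the adjusted p ran from 0.0044 to 0.053. Of all tested genes 28.7% had a log2 fold change as high or higher. SOX9 is also a bile duct gene. Of the bile duct markers, the anion exchanger SLC4A2 was at 59.7 ± 5.84 TPM in TSA and 20.6 ± 2.498 TPM in vehicle (SD, n = 3 each), while the keratin KRT7 was at 0.664 ± 0.272 TPM in TSA and 5.43 ± 1.54 TPM in vehicle (SD, n = 3 each).

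Long transcripts were more abundant in some libraries than in others, and SOX genes with long transcripts moved with it. Over 2525 tested genes whose longest transcript in GENCODE 29 is at least 6000 nt, the median deviation from the group mean was 0.31, −0.16 and −0.16 on the log2(TPM + 1) scale in TSA libraries 1, 2 and 3. In vehicle libraries 1, 2 and 3 it was 0.13, −0.23 and 0.098. SOX11, at 8719 nt, deviated by 0.11, −0.067 and −0.042 in the TSA libraries and by 0.18, −0.30 and 0.13 in the vehicle libraries. SOX5 and SOX6, at 6975 and 8865 nt, lay on the same side of their group mean as that median in all 6 libraries. SOX2, at 2513 nt, deviated by no more than 0.044 upward and −0.067 downward, and SOX4, at 5852 nt, by 0.054 and −0.058. SOX21, SOX9 and SOX12, at 2778, 3935 and 4630 nt, varied more. In SOX12 the deviation ran from −0.167 in vehicle library 1 to 0.173 in vehicle library 3. Each of them lay below its group mean in TSA library 1, where the long-transcript median lay above. Mitochondrial genes held 16.9%, 7.65% and 10.4% of all TPM in TSA libraries 1, 2 and 3, and 12.3%, 4.97% and 10.1% in vehicle libraries 1, 2 and 3. The part of these library differences in the changes of SOX5, SOX6 and SOX11 was not tested beyond the setting with trends removed.

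**Figure D2:**
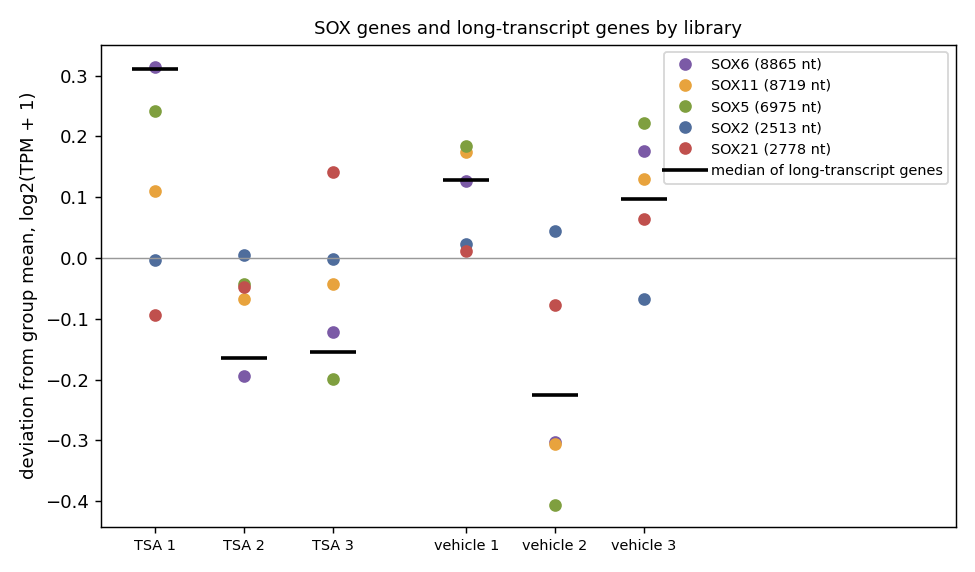
Deviation of 5 SOX genes from their group mean (y axis, log2(TPM + 1)) in each TSA and vehicle library (x axis), with the length of the longest transcript in the legend. Black dashes give the median deviation of 2525 genes with transcripts of 6000 nt or more, and the long SOX5, SOX6 and SOX11 lie on the same side of 0 as the dash in all 6 libraries.

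Summed over the 10 genes, the SOX level was 621, 614 and 622 TPM in TSA libraries 1, 2 and 3, and 1300, 1261 and 1262 TPM in vehicle libraries 1, 2 and 3. The sum in TSA was 48.6% of that in vehicle, and leaving out any single library kept it between 48.3% and 49.1%. SOX2 made up 47.5% ± 0.484 of the sum in TSA and 54.6% ± 2.16 in vehicle (SD, n = 3 each). For SOX4 the share was 32.9% ± 0.348 in TSA and 27.7% ± 0.708 in vehicle. SOX21 held 2.01% ± 0.186 in TSA and 6.32% ± 0.320 in vehicle, while SOX11 held 8.99% ± 0.583 in TSA and 5.11% ± 0.855 in vehicle. SOX2 was the highest and SOX4 the next in every library.

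In TSA the order ran SOX2, SOX4, SOX11, SOX12, SOX9, SOX21, SOX5 and SOX6, and in vehicle SOX2, SOX4, SOX21, SOX11, SOX12, SOX9, SOX5 and SOX6. SOX5 and SOX6 overlapped in TSA libraries, and SOX11 and SOX12 overlapped in vehicle libraries, so those neighbours in the order are not told apart by the spread. The lowest SOX12 value in TSA, 25.56 TPM, and the highest SOX9 value there, 25.45 TPM, barely separate those 2 genes. Between the orders of the means only SOX21 changed its place among the others, below SOX9 in every TSA library and above SOX11 in every vehicle library.

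**Figure D3:**
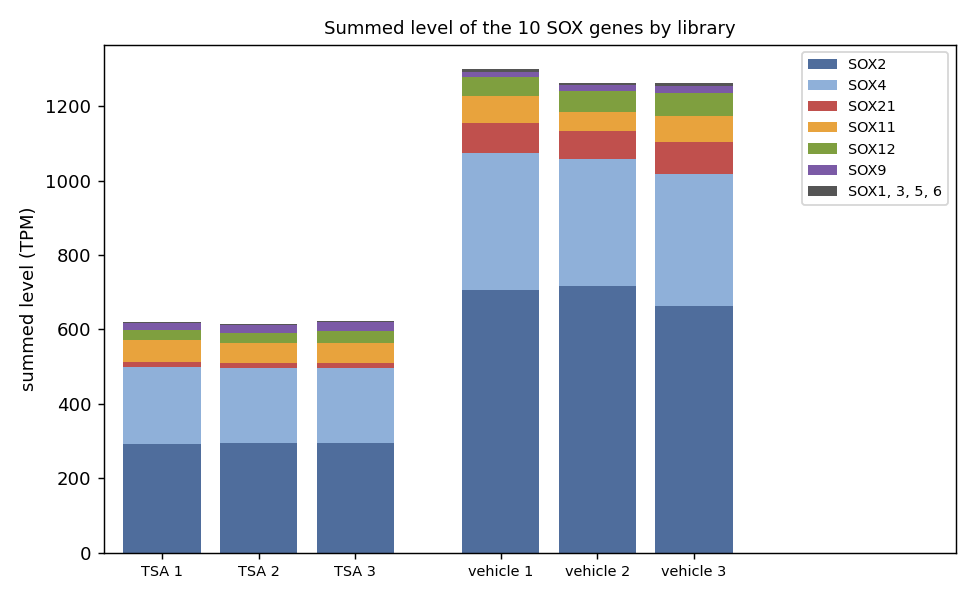
Summed level of the 10 SOX genes in TPM (y axis, from 0) in 3 TSA libraries (left) and 3 vehicle libraries (right), with each colour the part of 1 gene or, in grey, of SOX1, SOX3, SOX5 and SOX6 together. TSA libraries reach 614 to 622 TPM and vehicle libraries 1261 to 1300 TPM, and the part of SOX21 is thinner in TSA.

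Ratios between genes within a library do not depend on the scaling of the library, and 7 were compared. SOX21 per SOX2 was 0.0395, 0.0406 and 0.0470 in TSA libraries, and 0.115, 0.106 and 0.127 in vehicle libraries, lower in every TSA library than in any vehicle library. SOX2 per SOX4 was 1.44 ± 0.0224 in TSA and 1.97 ± 0.126 in vehicle (SD, n = 3 each). SOX4 per SOX11 was 3.67 ± 0.197 in TSA and 5.52 ± 0.869 in vehicle, again without overlap. A ratio does not remove the trend with transcript length described above, which SOX11 followed. Vehicle library 2, where SOX11 was lowest, gave 6.525, against 5.026 and 5.013 in vehicle libraries 1 and 3. SOX12 per SOX4 was 0.137 ± 0.0132 in TSA and 0.157 ± 0.0215 in vehicle, with overlapping groups and a two-sided exact permutation p of 0.3. For the other 6 ratios the two-sided exact permutation p was 0.1, the smallest that 3 against 3 libraries can give, and 0.117 after Benjamini-Hochberg adjustment over the 7 ratios.

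All 4 long non-coding RNAs beside SOX genes that were in the table fell, against 34.2% of all tested genes, with their median log2 fold change at −1.89, beside −0.095 over all tested genes. SOX2-OT and CASC15 were under 1 TPM in all TSA libraries and were tested only through their vehicle values. SOX2-OT, in whose transcribed region SOX2 lies on the same strand, was at 0.765, 0.745 and 0.543 TPM in TSA libraries 1, 2 and 3, and at 7.44, 8.81 and 8.96 TPM in vehicle libraries. No TSA library came near a vehicle library, and the log2 fold change was −2.48 (SE 0.15, limma adjusted p 2.7e-05). SOX2-OT per SOX2 was 0.00233 ± 0.000415 in TSA and 0.0121 ± 0.00149 in vehicle (SD, n = 3 each), without overlap. Reads of the 2 overlapping genes could be assigned to either, which makes the value of SOX2-OT uncertain.

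SOX21-AS1 is transcribed away from SOX21 out of the same stretch of DNA. Their RefSeq start sites lie 171 bases apart on opposite strands, and their promoter windows share 270 of 300 bases. SOX21-AS1 was at 11.22, 10.32 and 10.61 TPM in TSA libraries 1, 2 and 3, and at 27.24, 25.96 and 30.21 TPM in vehicle libraries. Both transcripts of this promoter region were lower in every TSA library than in any vehicle library, and SOX21-AS1 had log2 fold change −1.30 (SE 0.11, limma adjusted p 8.7e-05). SOX21 per SOX21-AS1 was 1.03, 1.16 and 1.30 in TSA libraries, and 2.98, 2.94 and 2.79 in vehicle libraries. In the SOX21 sequence above, TATAAA stood once, on the reverse strand, and its first base lies at −30 from the SOX21-AS1 start. Of all windows 11.5% held TATAAA.

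LINC00403 carries the gene ID that GENCODE 29 names SOX1-OT, an RNA of the SOX1 locus on chromosome 13. It was at 9.09, 8.37 and 4.66 TPM in TSA libraries 1, 2 and 3, and at 132, 84.1 and 152 TPM in vehicle libraries 1, 2 and 3. Vehicle libraries spread widely but stayed far above all TSA libraries, and the log2 fold change of −3.89 (SE 0.30, limma adjusted p 6.25e-05) was the largest among the SOX genes and neighbouring RNAs. The SOX1 messenger itself was at or near 0 in the same libraries. CASC15, an RNA downstream of SOX4, was low, at 0.937, 0.757 and 0.911 TPM in TSA libraries and 3.13, 2.11 and 4.09 TPM in vehicle libraries. Its log2 fold change was −1.11 (SE 0.21, limma adjusted p 0.0034), against −0.78 with length and GC trends removed and −1.68 with a pseudocount of 0.1.

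**Figure D4:**
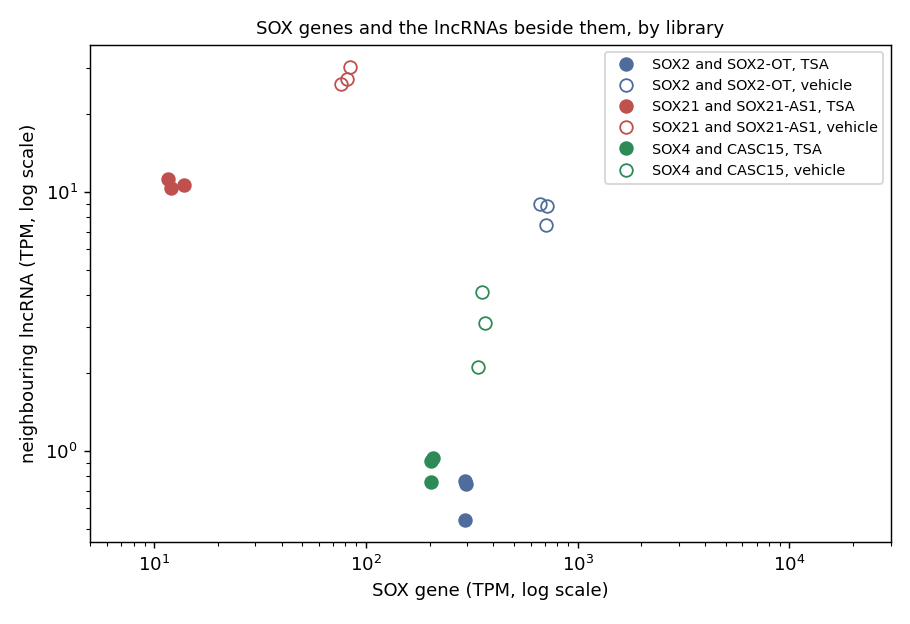
Level of the lncRNA (y axis, TPM, log scale) against that of the SOX gene beside it (x axis, TPM, log scale), with 1 point per library, filled for TSA and open for vehicle. For SOX21 with SOX21-AS1, SOX2 with SOX2-OT and SOX4 with CASC15, the filled points lie below and to the left of the open ones.

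Other SOX genes in the table moved both ways. SOX8, the group E relative of SOX9, was at 8.45, 11.9 and 13.4 TPM in TSA libraries 1, 2 and 3, and at 1.08, 0.754 and 1.15 TPM in vehicle libraries. It rose, with log2 fold change 2.60 (SE 0.20, limma adjusted p 6.8e-05), the greatest rise of any SOX gene tested. It reached 1 TPM in 2 of 3 vehicle libraries, so it passed the filter with the help of its TSA values. SOX13, of group D with SOX5 and SOX6, fell by 0.80 on the log2 scale, to 13.8 ± 2.09 TPM in TSA against 24.7 ± 2.12 TPM in vehicle (SD, n = 3 each). SOX7, of group F, has 2 rows in the table with nearly the same reads, and both were higher, at 22.6 ± 2.84 TPM in TSA and 13.8 ± 2.01 TPM in vehicle in the row ENSG00000171056.6, so its value is uncertain. SOX15 was at 0.449 ± 0.163 TPM in TSA and 0.0344 ± 0.0597 TPM in vehicle. SOX18, of group F, was at 0.0813 ± 0.0820 TPM in TSA and 0.463 ± 0.0287 TPM in vehicle. For SOX30, a gene of the testis, levels were 0.0397, 0.0773 and 0.0814 TPM in TSA libraries, and it was listed at 0 in vehicle. The last 3 were too low to test, with at most 6 reads in any library. SOX10, SOX14 and SOX17 had no row in the table, so no level is given for them.

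**Figure D5:**
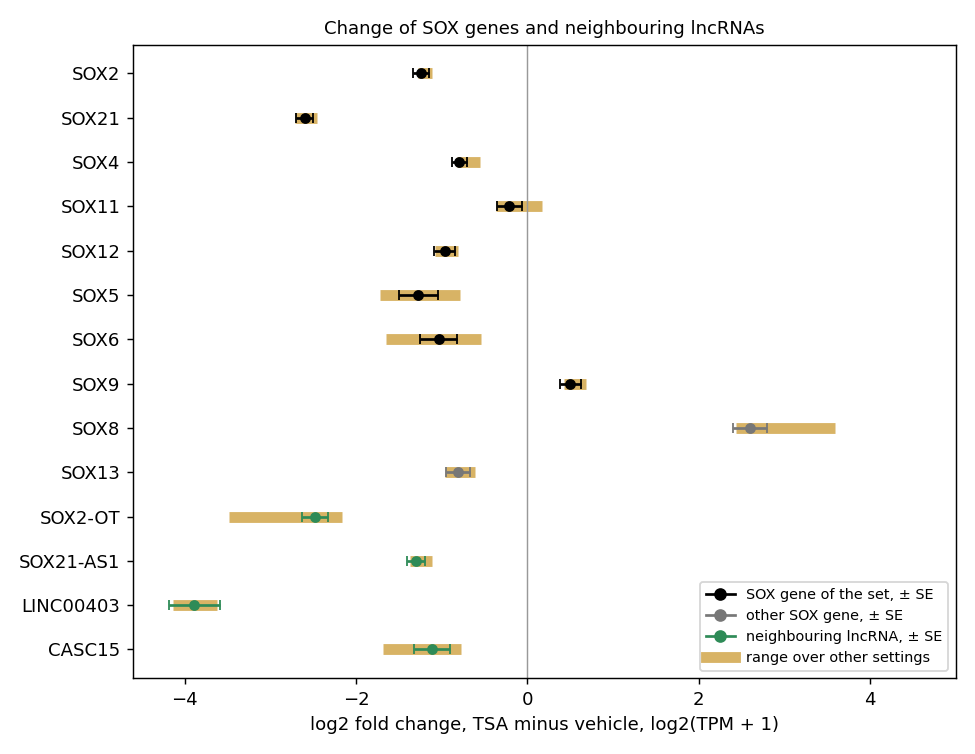
Log2 fold change on the log2(TPM + 1) scale (x axis, TSA minus vehicle) of SOX genes and of neighbouring lncRNAs (rows), as points with standard errors. Bars give the range over the alternatives, with smaller pseudocounts, other scalings, trends removed and libraries left out. SOX9 and SOX8 lie above 0, the bar of SOX11 crosses 0, and the other genes drawn lie below 0 throughout. SOX7, whose 2 rows were both called higher, is not drawn.

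In the authors' deposited table a positive log2 fold change means higher in TSA. There 8 of the 10 SOX genes had an FDR under 0.05, against 41.3% of the 31814 genes, which include those too low to test here. Of the 10, 7 were lower and 1 higher, against 19.5% and 21.8%. The 7 include SOX1, at an FDR of 0.0083, which was listed at 0 in all TSA libraries and was not tested here. The log2 fold changes in the authors' deposited table were −1.17 for SOX2, −2.61 for SOX21, −0.72 for SOX4, −0.92 for SOX12 and 0.61 for SOX9. The authors' deposited table gives −1.74 for SOX5 and −1.67 for SOX6, further from 0 than the values above, which carry a pseudocount. For SOX11 the authors' deposited table has −0.16 with an FDR of 0.508.

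Genes listed as partner factors of SOX proteins were also examined. Of 13 listed partner factors, 11 were in the table and 7 were tested, of which 1 was higher and 3 lower, beside 28.0% and 34.2% of all tested genes, so the share called is near that of all genes (62.2%). The median log2 fold change was −1.20, beside −0.095 over all tested genes. PROX1, a homeobox factor, was at 7.87 ± 3.61 TPM in TSA and 51.8 ± 18.5 TPM in vehicle (SD, n = 3 each), or −2.57 on the log2 scale (limma adjusted p 0.00098). POU6F1 was at 0.197 ± 0.0607 TPM in TSA and 4.24 ± 0.333 TPM in vehicle, and the eye and brain factor PAX6 at 0.700 ± 0.0789 TPM in TSA and 2.75 ± 0.519 TPM in vehicle, and both fell. They were under 1 TPM in all TSA libraries and were tested only through vehicle, and their log2 fold changes of −2.13 and −1.13 depended on the pseudocount, at −3.88 and −1.82 with 0.1. POU3F1, a POU factor of nerve sheath cells, rose to 26.4 ± 5.32 TPM in TSA, against 14.1 ± 0.572 TPM in vehicle. POU5F1, SALL4 and OTX2, partners in pluripotent or early neural cells, were under 0.1 TPM in every library.

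Genes reported in other systems to lie downstream of group B1 or group C factors were examined next. Of 12 listed genes, in 13 rows, 12 rows were tested, with 10 lower and 2 higher, beside 34.2% and 28.0% of all tested genes. The median log2 fold change was −1.26, beside −0.095 over all tested genes. LIN28B, among the lower ones, was under 1 TPM in all TSA libraries and was tested only through its vehicle values. TUBB3 had 2 rows that share reads, both lower. DCX, doublecortin of migrating neurons, was at 13.1 ± 3.77 TPM in TSA and 91.6 ± 29.5 TPM in vehicle (SD, n = 3 each), or −2.69 on the log2 scale (limma adjusted p 0.00029). PROM1, which encodes the surface protein CD133, was at 6.88 ± 0.478 TPM in TSA and 43.4 ± 4.95 TPM in vehicle. The other direction was seen for TEAD2, a partner of the coactivator YAP, at 5.35 ± 0.499 TPM in TSA and 0.147 ± 0.122 TPM in vehicle, and for the receptor gene NOTCH1, at 7.92 ± 2.47 TPM in TSA and 0.830 ± 0.210 TPM in vehicle. NOTCH1 reached 1 TPM in only 1 vehicle library and so passed the filter through TSA. TEAD2 was tested only through its TSA values, as it was under 1 TPM in all vehicle libraries, and its log2 fold change of 2.47 came to 4.57 with a pseudocount of 0.1.

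The cartilage matrix genes that SOX5, SOX6 and SOX9 drive together in chondrocytes were mostly too low to test. Of 13 listed, 5 were tested, with 1 lower and 2 higher, a share near the 62.2% called of all tested genes. The median log2 fold change was 0.25, beside −0.095 over all tested genes. COL2A1, the main collagen of cartilage, was at 1.58 ± 0.175 TPM in TSA and 26.04 ± 5.04 TPM in vehicle (SD, n = 3 each), with a log2 fold change of −3.37 and an adjusted p of 1.7e-05 by limma. COL11A2 was at 4.45 ± 1.59 TPM in TSA and 0.787 ± 0.377 TPM in vehicle, and COMP at 1.27 ± 0.120 TPM in TSA and 0.0646 ± 0.0563 TPM in vehicle, and both rose. COL11A2 reached 1 TPM in only 1 vehicle library and passed the filter through TSA. COMP was under 1 TPM in all vehicle libraries and so could be tested only because it was higher in TSA, and its log2 fold change of 1.10 came to 3.13 with a pseudocount of 0.1. ACAN, which encodes aggrecan, was under 0.1 TPM in every library.

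In GENCODE 29, the longest transcripts of SOX1, SOX2, SOX3, SOX4, SOX11, SOX12 and SOX21 have a single exon, that of SOX9 has 3, that of SOX5 has 14 and that of SOX6 has 16. Both single-exon and multi-exon genes were among those that fell. Genes whose log2(TPM + 1) values over the 6 libraries lay nearest to a SOX gene, by Euclidean distance, were SRSF8, DLX1 and LRRN3 for SOX21, at distances of 0.358, 0.446 and 0.461. For SOX2 they were TFDP1, RAD21 and DEK, at distances of 0.469, 0.502 and 0.556. The nearest to SOX9 were RNF126, LINC01003 and BCL10, at distances of 0.260, 0.264 and 0.285. SRSF8 is listed in 2 rows, so its value is uncertain. This measure joins level and change over 6 libraries in 2 groups and says nothing of shared control.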

How the data were processed

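Polyadenylated RNA of 6 libraries was sequenced from a stranded kit, per the labels. The submitters' processing notes list hg19 and the tools STAR 2.5.3a, featureCounts, edgeR, Picard 1.127 and FastQC 0.11.2, with no roles. No source used here gives the strand setting of counting. The authors deposited TPM for 31814 genes of GENCODE 19. Their own comparison table holds, per the file headers, log2 fold changes, a mean log2 level, a likelihood ratio score, p-values and FDR, and its sign equalled that of limma for 100% of called genes.

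Here limma 3.58.1 in R 4.3.3 was run on log2(TPM + 1), with the variance trend on, for genes reaching 1 TPM in 3 or more libraries. It was run first on simulated libraries with few changed genes, unlike these data, so that run does not bear on the calls here. Since the values are TPM, no test on counts was the main one. Values of a gene stood in whole-number ratios (relative tolerance 1e-09) for all 27644 genes above 0 in at least 2 libraries, and the smallest such whole numbers are given as reads, which are lower bounds, so no counting intervals are drawn. Ratios were compared by exact permutation with scipy 1.17.1, and figures drawn with matplotlib 3.10.9. GENCODE 29 lengths matched 94.75% of genes.

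The SOX genes, lists and tests were chosen with earlier results of these data known. Named were the SOX genes and neighbouring RNAs in the table, up to 4 called genes of each other list with the greatest change, and the 3 nearest genes of 3 SOX genes. Some marker genes the rule gives are shown only in sums, 1 of them is not reported here, and genes given as absent were named after their values were seen. The alternatives were other pseudocounts, filters, scalings and models, voom on recovered reads, trends of length and GC removed, the replicate number as a block, and each library left out. Leaving out mitochondrial genes or both replicate 1 libraries was added after seeing the data.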

Additional observations from a re-analysis of the deposited data

How the results depend on the processing

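Over the 18 alternatives the number of SOX genes called lower was 6 in all but 2 settings. It was 4 with a filter of 5 TPM, which leaves SOX5 and SOX6 untested, and 7 without vehicle replicate 2, where SOX11 passed. The number called higher was 1, but leaving out libraries gave 0 to 1, with SOX9 lost without TSA replicate 3. SOX2, SOX4, SOX12 and SOX21 kept their call and direction in all 18 alternatives, and SOX5 and SOX6 in the 17 in which they were tested. SOX11 turned to 0.17 with length and GC trends removed, and the cause was not tested. A median-of-ratios scaling put the all-gene median at 0.0085 in place of −0.095, SOX2 at −1.12 and SOX4 at −0.67. The number of called genes was 10942 and ran from 8744 (filter of 5 TPM) to 11996 (no filter) in settings that keep all libraries, apart from 12485 with the replicate number as a block, and from 9446 to 11562 with 1 library left out. Same-numbered libraries deviated together in pairs 1 and 2 (correlations across genes of 0.633 and 0.590) and not in pair 3 (−0.0729), so the numbers were not taken as pairing, and TSA library 3 correlated best with vehicle library 2 (0.381). With the replicate block 6 SOX genes were lower and 1 higher, as they were without both replicate 1 libraries. SOX1 and SOX3, with at most 2 recovered reads in any library, which are lower bounds, were too low to test here.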

Other observations

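Other genes with an HMG box were also listed. All 24 listed were tested, of which 14 were lower and 9 higher, beside 34.2% and 28.0% of all tested genes. The median log2 fold change was −1.08, beside −0.095 over all tested genes, and 2 of the 9 were under 1 TPM in all vehicle libraries. UBTF, a factor of ribosomal RNA transcription, was at 15.6 ± 1.85 TPM in TSA and 165 ± 1.63 TPM in vehicle (SD, n = 3 each), or −3.32 on the log2 scale (limma adjusted p 5.47e-06). TOX, a chromatin protein of lymphocyte and neural development, was at 23.3 ± 2.12 TPM in TSA and 180 ± 11.3 TPM in vehicle. LEF1, a mediator of WNT signals, fell to 3.28 ± 0.424 TPM in TSA, against 19.8 ± 2.64 TPM in vehicle, and the chromatin protein HMGB2 fell to 285 ± 43.3 TPM in TSA, against 1312 ± 47.4 TPM in vehicle.

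Relatives of LEF1 rose. TCF7 was at 6.08 ± 0.606 TPM in TSA and 2.55 ± 0.536 TPM in vehicle, TCF7L1 at 1.76 ± 0.263 TPM in TSA and 0.0460 ± 0.0226 TPM in vehicle, and TCF7L2 at 3.001 ± 0.723 TPM in TSA and 0.780 ± 0.351 TPM in vehicle, with adjusted p-values by limma of 0.0021, 0.00021 and 0.0028. TCF7L1 was under 1 TPM in all vehicle libraries, and TCF7L2 in 2 of 3, so both passed the filter through their TSA values, where they are high. These genes were named after their values were seen.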
